A study of Mus musculus with 21 samples.

Results

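Myeloid identity in B cell precursor cultures was followed through 10 genes, of 24421 in the deposited count table. They are the 6 transcription factors Cebpa, Cebpb, Cebpd, Cebpe, Spi1 and Irf8 and the 4 cytokine receptor chains Csf1r, Csf2ra, Csf2rb and Csf3r. They were picked out by symbol, with earlier results of these data known, and both the count table and the FPKM table hold all of them. Poly(A) RNA was sequenced from primary bone marrow B cell precursors of C57BL/6 mice that lack the DNA repair factor 53BP1 (53BP1-/-), so that all 3 conditions share this deletion. Total bone marrow was grown with IL-7, which favours B cell precursors, and was transduced with the retroviral vector MIGR1, either empty (EV) or carrying the oncogenes BCR-ABL1p210 (BCR-ABL1) or C-MYC. RNA was taken 7 to 9 days after transduction, with 2 libraries per condition and 6 in all. The sources used here describe duplicate experiments and name no mice, so p-values measure the spread between these samples. The age and sex of the mice and a sort for B cells before RNA extraction are not given in the sources used here.

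C/EBP proteins are basic leucine zipper factors that bind DNA as dimers. C/EBPα drives progenitors into the granulocyte and monocyte lineages and can convert B lineage cells to macrophages, and C/EBPε governs late granulocyte maturation. PU.1, the product of Spi1, is an ETS factor needed by both myeloid and early B cells, and IRF8 works with it in monocytes, dendritic cells and B cells. The receptor chains carry the colony-stimulating factor signals that keep myeloid cells alive: Csf1r encodes the M-CSF receptor kinase, Csf2ra the GM-CSF-specific chain, Csf2rb the β chain that GM-CSF, IL-3 and IL-5 receptors share, and Csf3r the G-CSF receptor of neutrophils.

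Relative to library size, both oncogene conditions held less RNA of most of these genes than EV. In BCR-ABL1 cells 8 of the 10 were lower and 0 higher, against a background of 12.0% of all 12786 genes tested called lower and 5.08% called higher. In C-MYC cells 9 of the 10 were lower and 0 higher, against a background of 24.5% called lower and 18.6% called higher. Between the oncogenes, 3 genes (Cebpa, Cebpb and Csf1r) were lower in BCR-ABL1 than in C-MYC cells, against a background of 11.5%, and 1 gene (Csf2rb) was higher, against 11.9%. A gene counted as higher or lower where its Benjamini-Hochberg adjusted p over all genes tested, from the quasi-likelihood test of edgeR, was under 0.05. Against EV, the 10 genes had a median log2 fold change of -2.86 with BCR-ABL1 and -1.21 with C-MYC, beside 0.00 and -0.08 over all genes tested. Cebpd and Cebpe reached the low-count filter through the EV libraries only, so that they had to differ, and their calls carry no weight. Of the other 8 genes, 6 were lower with BCR-ABL1 and 7 with C-MYC, with medians of -1.96 and -0.95. The comparisons with EV share the EV libraries. Fewer of all 10 genes, Cebpd and Cebpe included, were called lower without BCR-ABL1 replicate 2 or without C-MYC replicate 1. Among the other 8 genes, Irf8 lost its BCR-ABL1 call in the former setting (log2 fold change -0.93). In the latter, Cebpa (-0.54), Spi1 (-0.66) and Csf1r (-1.04) lost their C-MYC calls.

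The 6 libraries held between 20687092 and 24095955 counts each. CPM below are counts scaled by TMM to a library of 1000000, and serve to compare 1 gene between libraries. They are relative values, so statements that cells held less or more refer to shares of the library and not to amounts per cell. FPKM, the authors' values per kilobase of transcript and library size, serve to compare genes. In bulk RNA, fewer cells of a type and less RNA per cell cannot be told apart. B cell precursor markers summed to 9328 and 8384 CPM in EV, 8623 and 7746 under BCR-ABL1 and 7204 and 5703 under C-MYC. The most abundant of them was Cd24a, a surface protein of early B cells. Cd24a measured 3031 and 2804 CPM in EV, 2176 and 1939 under BCR-ABL1 and 3305 and 2429 under C-MYC, where it overlapped EV. Of 12 such markers, 3 were lower with BCR-ABL1 and 10 with C-MYC than in EV, and 0 were higher. The shares of all genes called lower were 12.0% and 24.5%. The 12 markers had median log2 fold changes of 0.00 and -0.74.

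**Figure D1:**
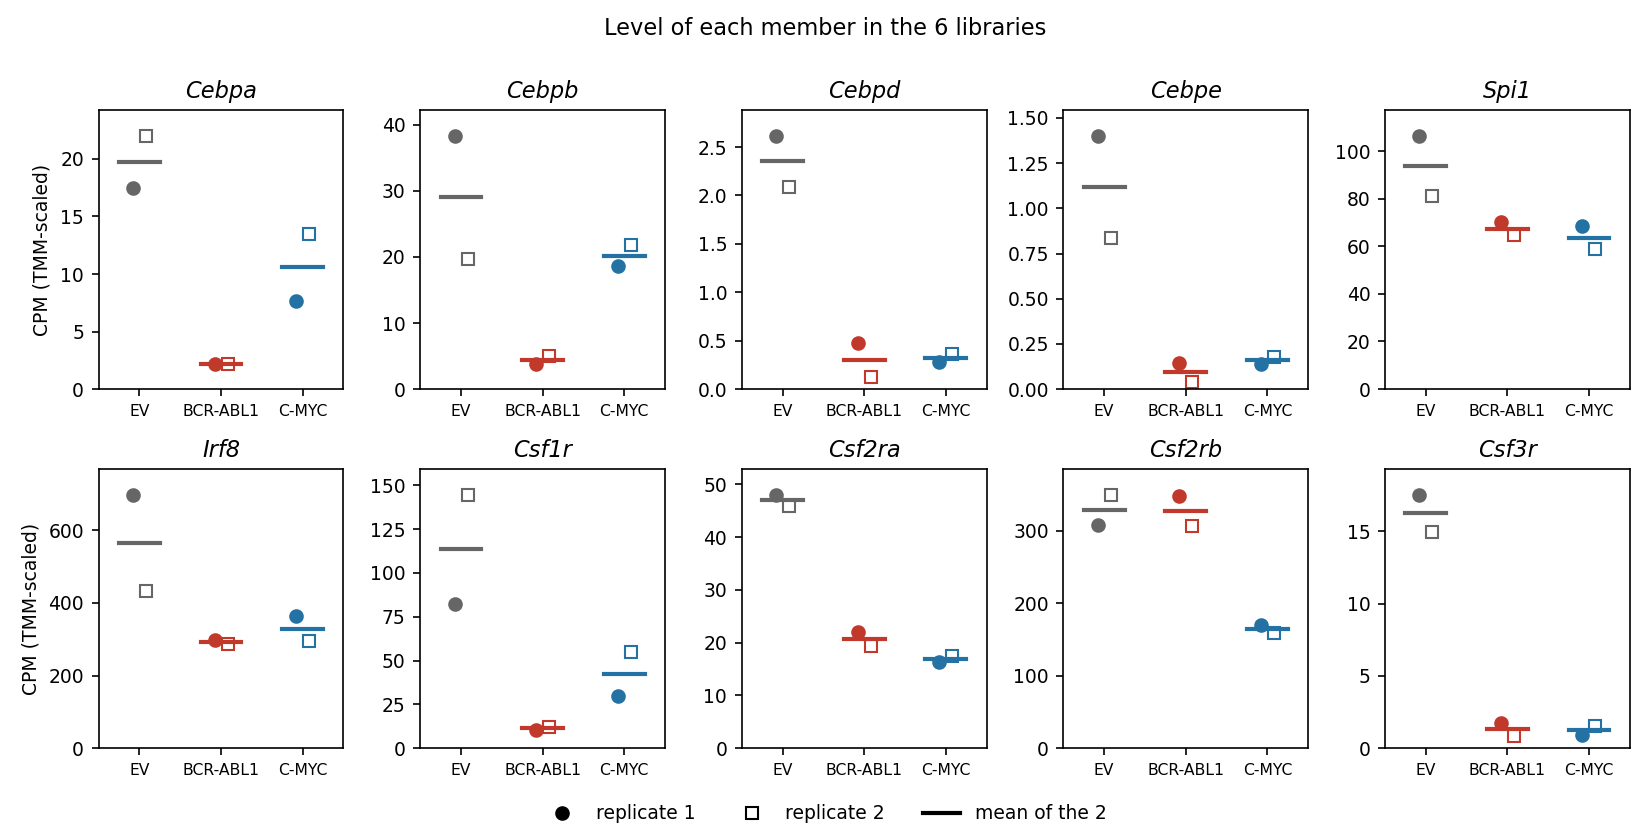
Level of each gene in the 6 libraries, in TMM-scaled CPM on linear axes that start at 0. Filled circles are replicate 1, open squares replicate 2 and bars the mean of the 2. BCR-ABL1 and C-MYC libraries lie below both EV libraries, except that C-MYC overlaps EV for Cebpb and BCR-ABL1 overlaps EV for Csf2rb.

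By FPKM, Irf8 was the highest of the 10 in every condition, with 210 ± 66.3 in EV, 104 ± 1.50 under BCR-ABL1 and 112 ± 13.5 in C-MYC cells (mean ± SD, n = 2 here and throughout). In EV it was followed by Csf1r (111 ± 45.0), Spi1 (73.6 ± 13.0) and Csf2rb (73.4 ± 5.32), whose neighbours in this order overlapped. Then came Cebpb (19.0 ± 8.33), Csf2ra (8.68 ± 0.138), Cebpa (7.48 ± 1.35) and Csf3r (3.67 ± 0.316), all apart from their neighbours, and last Cebpd (1.03 ± 0.144) and Cebpe (0.894 ± 0.302), which overlapped. The late granulocyte factor Cebpe rested on 20 to 30 counts per EV library.

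The order was rearranged by the oncogenes. In BCR-ABL1 cells Csf1r moved to 10.5 ± 1.04 FPKM, below Csf2rb (69.8 ± 6.78) and Spi1 (50.5 ± 2.58) with no overlap, and Cebpa moved to 0.782 ± 0.003 and Csf3r to 0.283 ± 0.127. In C-MYC cells Spi1 (45.9 ± 3.60), Csf1r (37.9 ± 16.8) and Csf2rb (33.2 ± 0.814) followed Irf8 with overlapping neighbours, and Cebpa (3.68 ± 1.52) overlapped Csf2ra (2.89 ± 0.183). The order depended on the length used. When CPM was divided by the annotated exon length instead, Csf1r ranked 4 in EV instead of 2, 6 in BCR-ABL1 instead of 4 and 5 in C-MYC instead of 3. Csf2rb then ranked 1 and Irf8 2 in BCR-ABL1 cells, and Csf2rb, Csf2ra, Cebpa, Cebpb, Cebpd and Cebpe also changed places in 1 or more conditions.

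Promoters of the 10 genes were looked up by symbol, to show which letters recognised by C/EBP, PU.1, MYC and STAT factors lie at their starts. RefSeq sequences of GRCm38.p6, from 250 bases before to 50 after the start, were given for 5 of the 10 genes (Cebpa, Cebpb, Irf8, Csf2ra and Csf3r, with 2 starts for Irf8). Motifs were searched on both strands as the C/EBP motif TTNNGCAA, the PU.1 core GAGGAA, the MYC E-box CACGTG and the STAT motif TTCNNNGAA. Of 32851 promoters of this length, 10.8% held the C/EBP motif, 28.3% the PU.1 core, 7.15% the E-box and 8.30% the STAT motif. Those of Csf3r (chr4:126024409-126024708, plus strand), Csf2ra (chr19:61228369-61228668, minus strand) and the upstream start of Irf8 (chr8:120736108-120736407, plus strand) held matches and are printed 5′ to 3′, with the matches in capitals.
Csf3r: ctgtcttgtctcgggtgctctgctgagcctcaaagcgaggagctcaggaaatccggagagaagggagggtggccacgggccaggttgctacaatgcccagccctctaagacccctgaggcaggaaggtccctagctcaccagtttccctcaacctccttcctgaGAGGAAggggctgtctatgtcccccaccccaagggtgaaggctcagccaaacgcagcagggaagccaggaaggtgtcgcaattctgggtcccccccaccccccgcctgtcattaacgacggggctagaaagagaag
Csf2ra: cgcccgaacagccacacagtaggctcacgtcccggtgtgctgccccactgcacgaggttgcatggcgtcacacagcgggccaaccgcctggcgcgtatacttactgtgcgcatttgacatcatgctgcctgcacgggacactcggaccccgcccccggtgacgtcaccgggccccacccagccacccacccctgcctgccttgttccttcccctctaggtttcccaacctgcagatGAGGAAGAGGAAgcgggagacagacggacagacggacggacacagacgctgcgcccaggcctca
Irf8: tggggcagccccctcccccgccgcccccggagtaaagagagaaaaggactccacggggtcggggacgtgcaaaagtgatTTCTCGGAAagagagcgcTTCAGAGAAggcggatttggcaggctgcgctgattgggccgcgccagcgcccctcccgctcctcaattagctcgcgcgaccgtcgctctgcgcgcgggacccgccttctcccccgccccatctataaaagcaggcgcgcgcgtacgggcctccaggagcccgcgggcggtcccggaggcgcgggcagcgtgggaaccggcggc
The capitals mark 1 PU.1 core in Csf3r, 86 bases before the start, and 2 adjoining PU.1 cores in Csf2ra, which begin 14 and 8 bases before the start. In Irf8 they mark 2 STAT motifs, which begin 171 and 153 bases before the start. The Cebpa and Cebpb promoters held none of these letters, and neither did the other Irf8 start. Cebpb was 80.7% G and C with 50 CG dinucleotides and Cebpa 67.3% with 29, whereas Csf3r was 60.7% with 9, beside a median of 52.7% over all promoters. A match describes the sequence and not the binding of a factor.

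Cebpa, the gene of the myeloid master regulator C/EBPα (chromosome 7, 35119293 to 35121928, GRCm38), was low in BCR-ABL1 cells and intermediate in C-MYC cells. It measured 17.4 and 22.0 CPM in the EV libraries, 2.18 and 2.16 under BCR-ABL1 and 7.68 and 13.5 under C-MYC. The 3 conditions did not overlap, but the C-MYC replicates lay 1.75-fold apart. BCR-ABL1 cells held 9.07-fold less than EV (log2 fold change -3.18 ± 0.31 SE, adjusted p = 0.00096) and 4.86-fold less than C-MYC cells (-2.28 ± 0.31, adjusted p = 0.00324). The difference of C-MYC from EV was smaller (-0.90 ± 0.28, adjusted p = 0.0321), and its call was lost without EV replicate 2 (-0.72, adjusted p = 0.0804), without C-MYC replicate 1 (-0.54, adjusted p = 0.158) and without BCR-ABL1 replicate 1 or 2 (both -0.89, adjusted p = 0.0534 and 0.0537), as well as with only the 4 libraries compared (-0.84, adjusted p = 0.0664) and in limma on log2(FPKM + 1) without a filter (-0.89, adjusted p = 0.0758). The latter setting also ended the call between the oncogenes (-1.35, adjusted p = 0.0542).

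Cebpb, whose product C/EBPβ supports emergency granulopoiesis and macrophage activation (chromosome 2, 167688915 to 167690418), had the highest FPKM of the 4 C/EBP genes followed here in all libraries. It measured 38.4 and 19.8 CPM in EV, 3.79 and 4.94 under BCR-ABL1 and 18.6 and 21.8 under C-MYC. BCR-ABL1 lay below the other conditions, whereas C-MYC overlapped EV, whose own replicates differed 1.94-fold. Cebpb was 6.62-fold lower in BCR-ABL1 than in EV (-2.73 ± 0.33, adjusted p = 0.00193) and 4.60-fold lower than in C-MYC (-2.20 ± 0.33, adjusted p = 0.00425). C-MYC against EV did not pass (-0.53 ± 0.30, adjusted p = 0.193), and 1 EV library decided that value: it was 0.03 (adjusted p = 0.911) without EV replicate 1 and -0.93 (adjusted p = 0.0043) without EV replicate 2.

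Cebpd, a factor induced by cytokines and inflammation (chromosome 16, 15887286 to 15891031), had 56 and 50 counts in EV, 10 and 3 under BCR-ABL1 and 6 and 8 under C-MYC. Cebpe (chromosome 14, 54710360 to 54712174) had 30 and 20 counts in EV, 3 and 1 under BCR-ABL1 and 3 and 4 under C-MYC. EV stood above both oncogenes for both genes, and the oncogenes overlapped. Pooled over the replicates and scaled by TMM, the Cebpe level in EV was 12.5 times that in BCR-ABL1 cells (95% exact binomial interval 4.57 to 47.5). It was 6.94 times that in C-MYC cells (3.13 to 18.1). The corresponding ratios of Cebpd were 8.13 (4.55 to 15.8) and 7.36 (4.20 to 13.9). These intervals cover counting error only. Both genes passed the filter through EV only, so their calls against EV are no evidence of a difference (-2.99 ± 0.55 and -2.87 ± 0.54 for Cebpd, -3.56 ± 0.66 and -2.77 ± 0.60 for Cebpe, adjusted p between 0.00445 and 0.0103), and Cebpe lost its BCR-ABL1 call without BCR-ABL1 replicate 1 (adjusted p = 0.0536) or 2 (adjusted p = 0.118) and its C-MYC call without C-MYC replicate 1 (adjusted p = 0.0726) or 2 (adjusted p = 0.0553). Cebpd lost its BCR-ABL1 call without BCR-ABL1 replicate 2 (-2.30, adjusted p = 0.0812). BCR-ABL1 and C-MYC could not be separated at this depth (-0.12 ± 0.67 for Cebpd and -0.80 ± 0.88 for Cebpe).

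Cebpa, Cebpb, Cebpd and Cebpe together summed to 33.7 and 23.2 FPKM in EV, 3.41 and 3.96 under BCR-ABL1 and 13.8 and 18.5 under C-MYC cells. The conditions did not overlap in this sum, which leaves out Cebpg. That family member, whose product lacks an activation domain of its own, had 1228 and 1018 counts in EV, 824 and 1055 under BCR-ABL1 and 892 and 949 under C-MYC. Cebpg had more counts than Cebpb in every library and was called in no comparison (-0.27 and -0.26 against EV, adjusted p = 0.317 and 0.245). The make-up of the sum of Cebpa, Cebpb, Cebpd and Cebpe moved less than its size. Cebpb held between 56.6% and 79.6% of this sum in the 6 libraries and Cebpa between 18.9% and 36.4%. Cebpd and Cebpe each held between 2.93% and 4.02% in EV and between 0.722% and 0.815% in C-MYC cells, whereas the BCR-ABL1 libraries ranged from 0.820% to 5.86%.

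**Figure D2:**
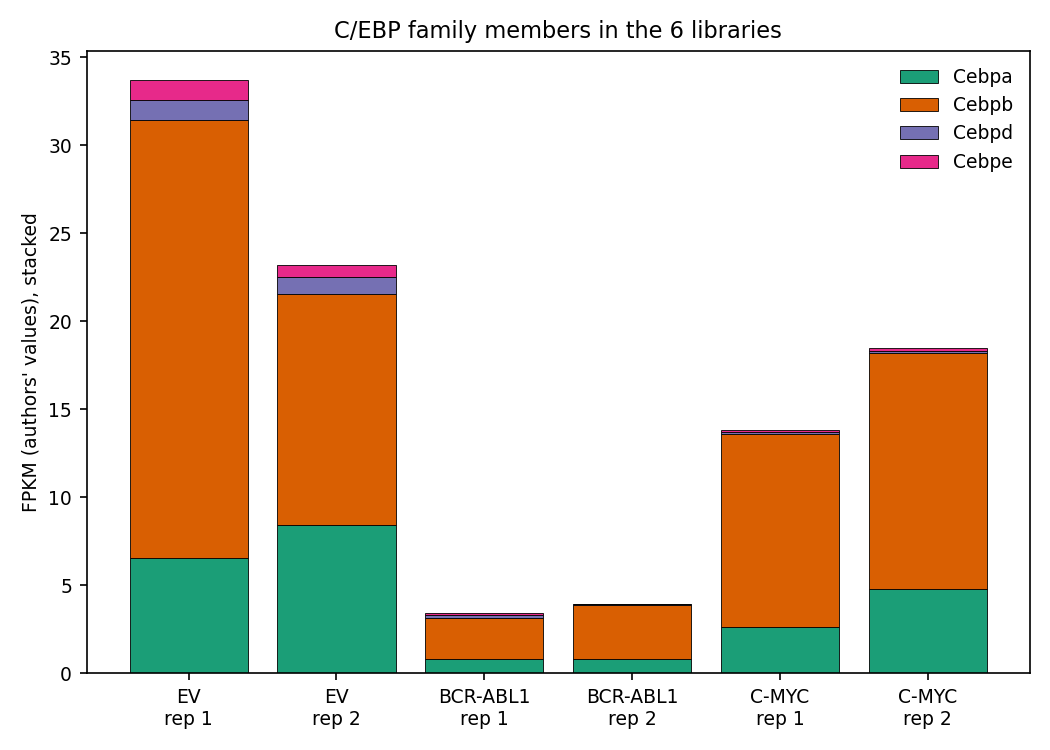
The 4 C/EBP genes in each library, as the authors' FPKM stacked on a linear axis. Sums were 33.7 and 23.2 in EV against 3.41 and 3.96 under BCR-ABL1 and 13.8 and 18.5 under C-MYC, and Cebpb made up the largest share of these 4 in every library.

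Spi1 (chromosome 2, 91082390 to 91115756), which B cell precursors also use, differed little. It measured 107 and 81.0 CPM in EV, 70.3 and 64.7 under BCR-ABL1 and 68.4 and 59.0 under C-MYC. Both oncogenes lay below EV replicate 2, the lower of the EV libraries, and overlapped each other. C-MYC cells held 1.47-fold less than EV (-0.56 ± 0.16, adjusted p = 0.0243), a call that was lost without EV replicate 1 (-0.34, adjusted p = 0.072), BCR-ABL1 replicate 2 (-0.55, adjusted p = 0.051), C-MYC replicate 1 (-0.66, adjusted p = 0.0619) or C-MYC replicate 2 (-0.45, adjusted p = 0.149), and with only the 4 libraries compared (-0.50, adjusted p = 0.0641). BCR-ABL1 against EV did not pass (-0.47 ± 0.16, adjusted p = 0.0823), but did without EV replicate 2 (-0.66, adjusted p = 0.0106). The value for BCR-ABL1 against C-MYC was 0.08 ± 0.16.

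Irf8 (chromosome 8, 120736358 to 120756694) kept a high level and was lower than EV under both oncogenes. It measured 698 and 432 CPM in EV, 297 and 287 under BCR-ABL1 and 364 and 294 under C-MYC. All 4 oncogene libraries lay below EV, whose replicates were 1.61-fold apart. Irf8 was 1.93-fold lower in BCR-ABL1 (-0.95 ± 0.21, adjusted p = 0.0207) and 1.72-fold lower in C-MYC cells (-0.78 ± 0.21, adjusted p = 0.0200), and BCR-ABL1 against C-MYC gave -0.17 ± 0.21 (adjusted p = 0.601). The BCR-ABL1 call was lost without BCR-ABL1 replicate 1 (-0.97, adjusted p = 0.102) or 2 (-0.93, adjusted p = 0.130), and the value was -0.56 without EV replicate 1. The C-MYC call was lost without EV replicate 1 (-0.39, adjusted p = 0.0514) or C-MYC replicate 2 (-0.63, adjusted p = 0.125). Limma on log2(FPKM + 1) without a filter gave -0.98 (adjusted p = 0.0809) for BCR-ABL1 and -0.87 (adjusted p = 0.0544) for C-MYC, neither of which passed.

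Csf1r, the M-CSF receptor of monocytes and macrophages (chromosome 18, 61100598 to 61132149), was graded between the conditions. It measured 82.5 and 145 CPM in EV, 10.6 and 12.0 under BCR-ABL1 and 29.9 and 54.9 under C-MYC, with no overlap. In both EV and C-MYC replicate 2 was the higher library, by 1.75-fold and 1.83-fold. Csf1r was 10.0-fold lower in BCR-ABL1 (-3.32 ± 0.36, adjusted p = 0.00137) and 2.68-fold lower in C-MYC than in EV (-1.42 ± 0.33, adjusted p = 0.0105), and 3.74-fold lower in BCR-ABL1 than in C-MYC (-1.90 ± 0.35, adjusted p = 0.00817). The call of C-MYC against EV was lost without C-MYC replicate 1 (-1.04, adjusted p = 0.066), and that between the oncogenes without BCR-ABL1 replicate 1 (-1.81, adjusted p = 0.0695) or C-MYC replicate 2 (-1.40, adjusted p = 0.0524). Limma on log2(FPKM + 1) without a filter ended both calls (-1.53, adjusted p = 0.0542, and -1.70, adjusted p = 0.0784). Lyz2, the macrophage and granulocyte lysozyme, measured 496 and 690 CPM in EV, 97.4 and 123 under BCR-ABL1 and 132 and 226 under C-MYC, with the same library the higher in each condition as for Csf1r. Whether the share of macrophages sets Csf1r was not tested.

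Csf2ra, the ligand-specific chain of the GM-CSF receptor (chromosome 19, 61223957 to 61228429), was tight between replicates. It measured 48.1 and 45.9 CPM in EV, 22.0 and 19.3 under BCR-ABL1 and 16.4 and 17.5 under C-MYC. It was 2.27-fold lower in BCR-ABL1 (-1.19 ± 0.14, adjusted p = 0.00174) and 2.77-fold lower in C-MYC cells (-1.47 ± 0.14, adjusted p = 0.000385). Each call remained under all 16 other settings tried. BCR-ABL1 lay above C-MYC in all libraries, but the difference did not pass (0.29 ± 0.14, adjusted p = 0.181).

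Csf2rb, the shared β chain (chromosome 15, 78325752 to 78353847), followed another pattern from the rest. It measured 309 and 350 CPM in EV, 348 and 307 under BCR-ABL1 and 170 and 159 under C-MYC. BCR-ABL1 and EV covered the same range, and C-MYC lay below both. C-MYC cells held 2.00-fold less than EV (SE 0.11 on the log2 scale, adjusted p = 0.000621), and BCR-ABL1 cells 1.99-fold more than C-MYC cells (0.99 ± 0.11, adjusted p = 0.00174). BCR-ABL1 against EV gave -0.01 ± 0.11 (adjusted p = 0.970), and between -0.09 and 0.09 when any 1 library was left out.

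Mice carry a second β chain gene, Csf2rb2, which serves IL-3 only and lies 20.0 kb from Csf2rb on chromosome 15. The genes are near copies, and reads that fit both could have been given to either. Csf2rb2 measured 152 and 150 CPM in EV, 135 and 109 under BCR-ABL1 and 57.3 and 51.1 under C-MYC, so C-MYC lay lowest there too. It was 2.79-fold lower in C-MYC than in EV (-1.48 ± 0.14, adjusted p = 0.00035). Summing the 2 genes, a setting chosen after seeing the data, gave -0.10 (adjusted p = 0.614) for BCR-ABL1 against EV, -1.14 (adjusted p = 0.00043) for C-MYC against EV and 1.04 (adjusted p = 0.00138) between the oncogenes. Since Csf2ra was lower under both oncogenes and Csf2rb in C-MYC cells, the balance of the chains differed: there were 6.43 and 7.62 Csf2rb counts for each Csf2ra count in EV, 15.8 and 15.9 under BCR-ABL1 and 10.4 and 9.09 under C-MYC. The ratio did not overlap between conditions.

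Csf3r, the G-CSF receptor (chromosome 4, 126024550 to 126044440), was low under both oncogenes. It measured 17.5 and 15.0 CPM in EV, 1.75 and 0.873 under BCR-ABL1 and 0.919 and 1.53 under C-MYC. It was 12.4-fold lower in BCR-ABL1 (-3.64 ± 0.37, adjusted p = 0.00110) and 13.2-fold lower in C-MYC cells (-3.72 ± 0.38, adjusted p = 0.00045), and all 16 other settings gave both calls. The oncogene libraries held 20 to 37 counts and overlapped (0.09 ± 0.41, adjusted p = 0.902), and that value lay between -0.48 and 0.51 when any 1 library was left out. Ngp, a granule protein of neutrophils, measured 364 and 107 CPM in EV, 14.3 and 9.81 under BCR-ABL1 and 9.88 and 12.1 under C-MYC. Ngp was also higher in EV than under both oncogenes, but its EV replicates lay further apart than those of Csf3r, which differed 1.17-fold. The part of neutrophils in the Csf3r values was not tested.

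**Figure D3:**
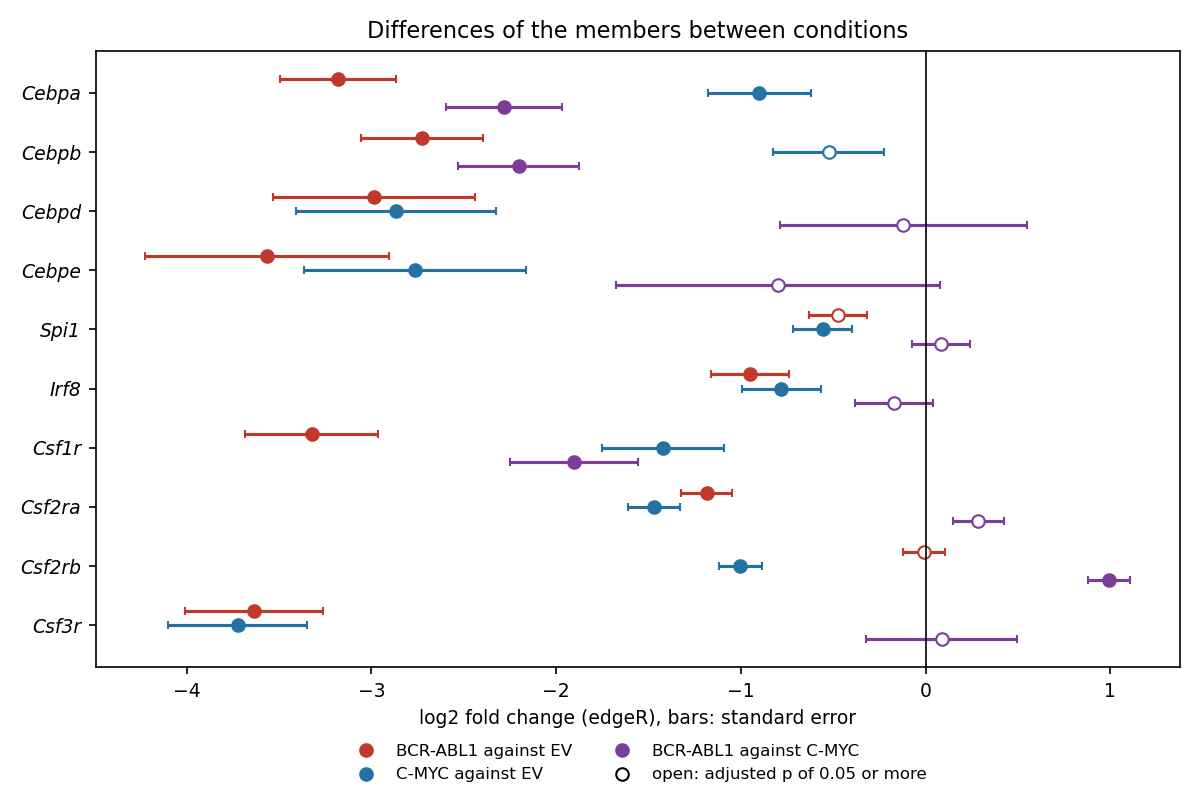
Log2 fold change of each gene in the 3 comparisons, with its standard error as a bar. Filled points passed an adjusted p below 0.05 and open points did not. Against EV, 8 genes in BCR-ABL1 and 9 in C-MYC cells are filled to the left of 0. Cebpd and Cebpe, which passed the filter through EV only, are among them. Between the oncogenes Cebpa, Cebpb and Csf1r lie to the left and Csf2rb to the right.

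The replicate spread of the 10 genes in EV did not run one way. Csf1r and Cebpa were higher in EV replicate 2, by 1.75-fold and 1.26-fold, whereas Cebpb, Irf8 and Spi1 were higher in EV replicate 1, by 1.94-fold, 1.61-fold and 1.32-fold. Csf2ra and Csf2rb were within 1.05-fold and 1.13-fold. In C-MYC, Csf1r and Cebpa were the genes that differed most among those with over 100 counts, and both were higher in replicate 2.

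Other regulators of myeloid fate were taken as a list of 19 genes, all of them tested. Of these, 7 were lower and 0 higher in BCR-ABL1 cells against EV (median log2 fold change -0.49), beside 12.0% and 5.08% of all genes. In C-MYC cells 11 were lower and 2 higher (median -0.78), beside 24.5% and 18.6%. The higher ones were a smaller share than among all genes. Gata2, a factor of stem cells, mast cells and basophils, was lower in both (-5.27 ± 0.36 and -4.46 ± 0.33, adjusted p = 0.000367 and 0.000191), and so was Nfe2 of the megakaryocyte and erythroid lineages (-3.50 ± 0.46 and -2.87 ± 0.44). Egr2, a zinc finger factor of macrophages, was 15.1-fold lower in C-MYC cells (-3.92 ± 0.48). The 2 higher genes in C-MYC cells were Gfi1, a repressor needed for neutrophil development (1.67 ± 0.38, adjusted p = 0.00988), and Trib1, an adaptor that targets C/EBPα protein for degradation (0.90 ± 0.13, adjusted p = 0.00131). The call of Gfi1 was lost without C-MYC replicate 2 (adjusted p = 0.0555), and its value was 2.48 without EV replicate 1. Gata2 in BCR-ABL1 cells was -5.88 without BCR-ABL1 replicate 1.

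Trib2, a relative of Trib1, was lower in BCR-ABL1 than in C-MYC cells (-2.29 ± 0.33, adjusted p = 0.00396). Of the list, 4 genes were lower and 2 higher in BCR-ABL1 than in C-MYC cells, with a median of 0.21, which is not far from the 11.5% and 11.9% of all genes. Gfi1 was also lower (-1.42, adjusted p = 0.0311), and Runx1 (0.53, adjusted p = 0.0260) and the PU.1 relative Spib (0.52, adjusted p = 0.0238) were higher. Leaving out any 1 of the 4 libraries of this comparison ended the calls of Gfi1 (adjusted p between 0.0962 and 0.194) and Runx1 (between 0.0552 and 0.199), and that of Spib was lost without BCR-ABL1 replicate 1 or 2 or C-MYC replicate 2 (between 0.0956 and 0.164).

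Of 19 ligands and other receptor chains, 11 passed the low-count filter. The cytokine genes Csf2, Csf3, Il3, Il5, Il6 and Il34 and the receptor gene Epor were among those that did not, with at most 12 counts in any library. Of the 11, 7 were lower and 0 higher in BCR-ABL1 (median -1.32) and 8 were lower and 0 higher in C-MYC cells (median -1.48) against EV. The shares over all genes were 12.0% and 5.08% with BCR-ABL1 and 24.5% and 18.6% with C-MYC. In BCR-ABL1 cells the lower genes were led by Kit, the stem cell factor receptor (-2.65 ± 0.37, adjusted p = 0.00337), Il6ra, the IL-6 receptor (-2.60 ± 0.35, adjusted p = 0.00311), and Il7r, the receptor for the growth factor of these cultures (-1.82 ± 0.17, adjusted p = 0.00091). In C-MYC cells they were led by the ligand genes Flt3l (-2.69 ± 0.26, adjusted p = 0.000385) and Csf1 (-2.01 ± 0.25, adjusted p = 0.000819), the latter encoding the ligand of Csf1r, and by Kit (-1.79 ± 0.35, adjusted p = 0.00526). Without EV replicate 1, the values of Kit were -2.01 with BCR-ABL1 and -1.15 with C-MYC.

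Between the oncogenes, 5 of these 11 genes were higher and 1 lower in BCR-ABL1 cells, with a median of -0.05, or 0.47 without Kitl. The shares over all genes were 11.9% and 11.5%. The receptor Flt3 (2.62 ± 0.49, adjusted p = 0.00873), its ligand Flt3l (1.37 ± 0.26, adjusted p = 0.00936) and Csf2rb2 (1.18 ± 0.14, adjusted p = 0.00172) led the higher ones. Kitl, the ligand of Kit, was lower, with 1 and 3 counts under BCR-ABL1 and 13 and 35 under C-MYC. Kitl passed the filter through C-MYC only, so that it had to differ. C-MYC cells held 12.3 times as much (95% exact binomial interval 4.51 to 47.0, for counting error only). The Flt3 call was lost without BCR-ABL1 replicate 1 (2.03, adjusted p = 0.0728) or C-MYC replicate 2 (0.0767), that of Flt3l without BCR-ABL1 replicate 1 (0.0634) or 2 (0.0669) or C-MYC replicate 1 (0.0650), and Kitl, with a log2 fold change of -3.54 (adjusted p = 0.0193), was -3.07 (0.151) without BCR-ABL1 replicate 1, -4.37 (0.0798) without BCR-ABL1 replicate 2 and -2.69 (0.137) without C-MYC replicate 2.

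Signalling genes downstream of these receptors were a list of 17, all tested. In BCR-ABL1 cells against EV 1 was higher and 2 were lower (median -0.08), shares near those over all genes of 5.08% and 12.0%. In C-MYC cells 11 were lower and 0 higher (median -0.86), beside 24.5% and 18.6% of all genes. Against C-MYC, BCR-ABL1 cells held more of 10 and less of 0 (median 0.68), beside 11.9% and 11.5%. Cish, a STAT5-induced inhibitor of cytokine receptors, was the higher gene against EV (1.57 ± 0.28, adjusted p = 0.00892). The lower genes there included the myeloid kinase gene Fes (2.01-fold, SE 0.23 on the log2 scale, adjusted p = 0.0225), whose call was lost without BCR-ABL1 replicate 1 (adjusted p = 0.0995) or 2 (0.169). In C-MYC cells Fes (-1.84 ± 0.24, adjusted p = 0.000965) and the receptor inhibitor Socs3 (-1.57 ± 0.21, adjusted p = 0.00114) were among the lower genes with the largest differences. Socs3 (2.19 ± 0.21), Cish (1.95 ± 0.28) and Socs1 (1.87 ± 0.31) led the differences between the oncogenes, and Socs1 was lost without C-MYC replicate 2 (adjusted p = 0.0560).

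Myeloid effector genes, the granule, surface and oxidase products that C/EBP and PU.1 factors are known to switch on, were a list of 22. Of these, 20 were lower in BCR-ABL1 (median -3.74) and 22 in C-MYC cells (median -3.12) against EV, and 0 were higher. Over all genes, 12.0% and 24.5% were lower. Of the 22, 4 passed the filter through EV only, Mpo and Elane among them, and of the other 18 genes 16 were lower with BCR-ABL1 (median -3.63) and 18 with C-MYC (median -2.73). The lowest in BCR-ABL1 cells by fold were the azurophil granule genes Mpo (-5.27 ± 0.58) and Elane and the secondary granule gene Ltf (-4.37 ± 0.47, adjusted p = 0.00136). Elane had 80 and 34 counts in EV and 1 and 2 in BCR-ABL1, and EV held 37.9 times as much (95% exact binomial interval 12.6 to 186, for counting error only). In C-MYC cells Mmp9 (-4.55 ± 0.48), Ltf (-4.46 ± 0.47) and Lcn2 (-4.44 ± 0.55), all neutrophil granule products, were the lowest. Without EV replicate 1, the library with the highest neutrophil marker sum, Mmp9 was -3.85, Ltf -3.67 and Lcn2 -3.49 in C-MYC cells, and Ltf was -3.58 and Elane -4.31 in BCR-ABL1 cells.

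Between the oncogenes 4 effector genes were lower in BCR-ABL1 cells and 3 higher, not far from the 11.5% and 11.9% of all genes, with a median of -0.31, or 0.0250 without the 4 genes that passed the filter through EV only. The Fc receptor genes Fcgr3 (-1.70 ± 0.21, adjusted p = 0.00226) and Fcer1g (-1.43 ± 0.21, adjusted p = 0.00382) and the endotoxin receptor gene Cd14 (-2.26 ± 0.51, adjusted p = 0.0174) were lower, in the direction of Csf1r. The oxidase genes Cybb (1.72 ± 0.27, adjusted p = 0.00501) and Ncf4 (0.66 ± 0.12, adjusted p = 0.00756) and the integrin gene Itgb2 (0.69 ± 0.13, adjusted p = 0.00977) were higher. Cd14 was lost without BCR-ABL1 replicate 1 (adjusted p = 0.0967) or 2 (0.0860) or C-MYC replicate 2 (0.105), Ncf4 without the same libraries (0.0878, 0.0613 and 0.0692), and Itgb2 without BCR-ABL1 replicate 2 (0.0883) or C-MYC replicate 1 (0.0733).

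**Figure D4:**
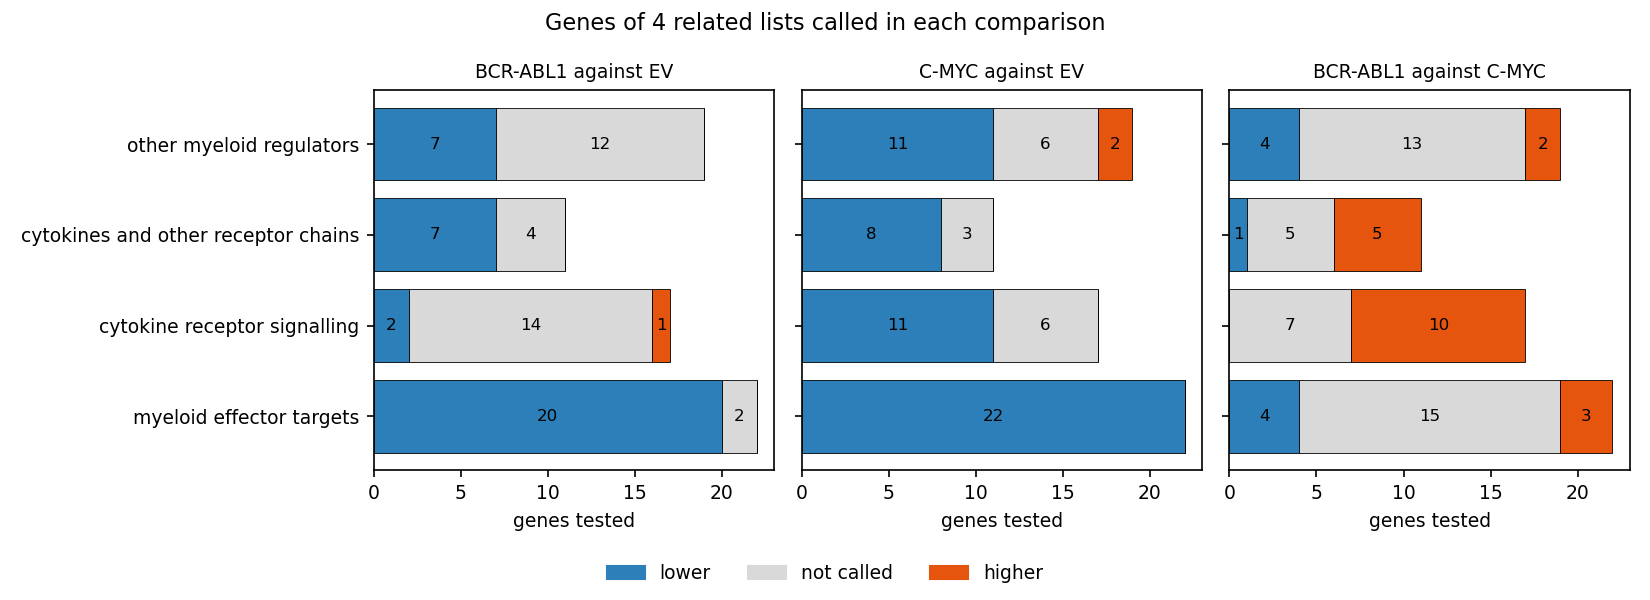
Genes tested in 4 related lists, by comparison, as stacked bars of those called lower, not called and called higher. Effector targets were lower in 20 and 22 of 22 cases against EV. Without the genes that passed the filter through EV only, they were lower in 16 and 18 of 18. Of 17 signalling genes, 10 were higher in BCR-ABL1 than in C-MYC cells.

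Markers of other cell types differed between the conditions. The neutrophil markers other than Retnlg, and the macrophage markers Cd14 and Lyz2, are also on the effector list, so they are not separate observations. Of all genes tested, 12.0% were lower with BCR-ABL1 and 24.5% with C-MYC than in EV, and 11.5% in BCR-ABL1 than in C-MYC. Neutrophil markers summed to 1158 and 370 CPM in EV, between 30.1 and 50.1 in BCR-ABL1 and between 31.7 and 41.3 in C-MYC cells, and 9 of 9 were lower in each comparison with EV. Monocyte and macrophage markers summed to 956 and 1347 CPM in EV, 151 and 196 under BCR-ABL1 and 263 and 475 under C-MYC, and 10 of 10 with BCR-ABL1 and 7 of 10 with C-MYC were lower than in EV, with 7 of 10 also lower in BCR-ABL1 than in C-MYC. The order of these sums, EV over C-MYC over BCR-ABL1, was also that of Csf1r and Cebpa.

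Markers of the other lineages were mostly lower under both oncogenes too. Mast cell and basophil markers summed to between 85.2 and 87.3 CPM in EV and between 1.70 and 4.89 under the oncogenes, with 5 of 5 tested lower in each, led by the basophil protease Prss34. T and NK cell markers, led by Cd8a, summed to between 98.2 and 134 in EV and at most 9.43 under the oncogenes (8 of 8 lower in each), and stromal markers, led by the collagen gene Col1a1, to between 102 and 153 in EV and between 1.70 and 5.98 under the oncogenes (3 of 4 tested lower with BCR-ABL1 and 4 of 4 with C-MYC). Dendritic cell markers, led by the integrin gene Itgax, summed to between 22.2 and 25.1 in EV. They summed to 11.7 and 6.61 under BCR-ABL1 and 2.94 and 3.32 under C-MYC, with 3 of 5 tested lower in each. Most of the BCR-ABL1 sum was Flt3, which is also on the list of receptor chains. Flt3 measured 3.18 and 1.76 CPM in EV, 9.58 and 4.74 under BCR-ABL1 and 1.47 and 0.853 under C-MYC. It was called in neither comparison with EV. Itgax measured 17.0 and 15.3 CPM in EV and 0.901 and 0.873 under BCR-ABL1. Erythroid markers summed to at most 1.54 in any library, mostly from Alas2, and 5 of 7, among them the globin genes Hba-a1, Hba-a2, Hbb-b1 and Hbb-bt, were at 0 in all libraries. Among the marker genes tested, 2 neutrophil, 1 macrophage, 3 dendritic cell, 3 mast cell or basophil, 1 T or NK cell and 2 stromal markers passed the filter through EV only. Their calls against EV carry no weight. Without them, 7 of 7 neutrophil and 7 of 7 T or NK cell markers were lower with each oncogene. So were 2 of 2 mast cell or basophil, 2 of 2 stromal and 1 of 2 dendritic cell markers. Macrophage markers were lower in 9 of 9 cases with BCR-ABL1 and 7 of 9 with C-MYC. The part of these cell types in the values of the 10 genes was not tested, and a change of their share cannot be told apart from a change within B cell precursors.

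**Figure D5:**
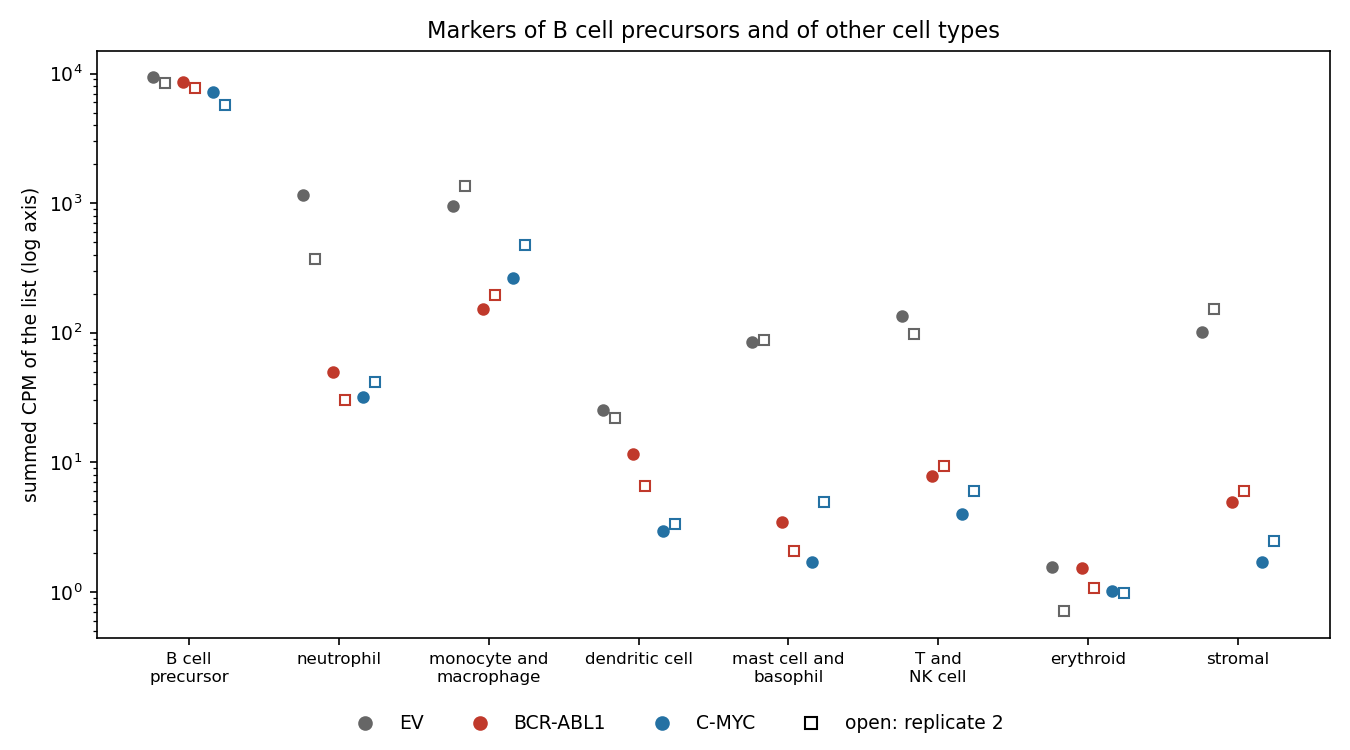
Summed CPM of 8 marker lists in each library, on a log axis. Filled circles are replicate 1 and open squares replicate 2. B cell precursor markers lie between 5703 and 9328 CPM, with the C-MYC libraries lowest. The neutrophil, macrophage, mast cell, T cell and stromal lists lie lower in all oncogene libraries than in EV.

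Genes most like each of the 10 over the 6 libraries were taken from 10623 genes with at least 50 counts on average, by Pearson's r of log2 CPM. With 3 conditions of 2 libraries such values follow the differences between conditions, and they are given as a description. Csf1r was closest to Tbxas1, the thromboxane synthase of macrophages and platelets (r = 0.999), and Appl2 (0.996), and Cebpa to Myo1e (0.998) and Xrcc6 (0.996). Among the genes closest to Csf3r was the basophil protease gene Mcpt8 (0.996), and among those closest to Csf2ra the chemokine gene Xcl1 (0.999). Csf2rb was closest to Acss1 (0.998) and Tmem176b (0.997), Cebpb to Il15ra and Ninj1 (both 0.993), Spi1 to Trex1 (0.996) and Slc5a5 (0.994), and Irf8 to Hvcn1 and Tnfrsf1b (both 0.994). The low genes Cebpd and Cebpe were closest to Plk3 and 1700094D03Rik (both 0.990) and to Il18r1 (0.993) and Runx2 (0.991).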

How the data were processed

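RNA-seq of 3 conditions with 2 libraries each was analysed. The authors made the deposited counts, whole reads per gene symbol, after alignment to the mouse genome GRCm38 by STAR 2.5.0, as named in the submitters' processing notes. The program that counted reads and its strand setting are not given in the sources used here. The deposited FPKM values were calculated by the authors with StringTie 1.3.0. ChIP-seq samples were not analysed here.

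Counts were tested in edgeR 4.0.16 (R 4.3.3) with TMM scaling, filterByExpr by condition (12786 of 24421 genes kept), 1 model of all 6 libraries without covariates and the quasi-likelihood test, adjusted by Benjamini-Hochberg over all genes tested. Standard errors are the absolute log2 fold change divided by the square root of F. DESeq2 1.42.0 and limma 3.58.1 on log2(FPKM + 1) or log2(FPKM + 0.1), with a mean FPKM of at least 1 or no filter, were alternatives, beside other scaling, other count filters, a replicate block and leaving out libraries. Intervals for low counts are exact binomial, with library sizes scaled by TMM. Positions are 1-based from the GENCODE annotation of GRCm38, and promoters are from RefSeq.

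The members and lists were chosen with earlier results of these data known. Besides the members, the text names from each list up to 3 called genes per direction and comparison with the largest absolute log2 fold change, the most abundant marker of each cell type, and the 2 genes most like each member. Lyz2 and Ngp are such markers. Counts and medians without genes that had at least 10 counts in both libraries of 1 condition only were added after seeing the data. Some genes that this rule selects are not reported here. Csf2rb2 and genes below the filter were named after their values were seen.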

Additional observations from a re-analysis of the deposited data

How the results depend on the processing

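Without 1 library at a time, the members lower in BCR-ABL1 than in EV numbered 5 to 9 (5 without BCR-ABL1 replicate 2), those lower in C-MYC than in EV 5 to 9 (5 without C-MYC replicate 1), and those lower in BCR-ABL1 than in C-MYC 2 to 3. With limma on log2(FPKM + 1) and no filter the last was 1, with adjusted p of 0.0542 for Cebpa and 0.0784 for Csf1r. The cause was not tested. The other settings stayed within 1.5 times the members' counts. Limma with a filter on FPKM did not test Cebpd and Cebpe. The counts of the other settings include both genes, which passed the main filter through EV only. Of the other genes named, limma without a filter ended the calls of Cish in BCR-ABL1 (adjusted p = 0.0542) and Gfi1 in C-MYC cells (0.0517) against EV and of Cd14, Flt3, Gfi1, Kitl, Runx1 and Spib between the oncogenes (0.0534 to 0.214), and Fes in BCR-ABL1 cells was lost there (0.0921) and at a pseudocount of 0.1 (0.0567).

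Of the alternative values of the members' log2 fold changes, 424 kept direction and side of the threshold, 28 lost the call, 3 gained it and 11 changed sign. Csf2rb in BCR-ABL1 against EV was 0.0116 with DESeq2 size factors, 0.00222 without a filter, 0.0195 in DESeq2's Wald test and between -0.0936 and 0.0870 without 1 library. Cebpb in C-MYC against EV ranged from -0.93 to 0.0327 without 1 library. In BCR-ABL1 against C-MYC the ranges were -1.31 to 0.56 for Cebpd, -0.0193 to 0.19 for Spi1 and -0.48 to 0.51 for Csf3r.

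Replicate numbers were shared between conditions, with 2 pairs in each comparison and correlations of deviations of 0.408, 0.294 and 0.319, but the labels give no pairing. With a replicate block 9 members were lower in each oncogene than in EV, Spi1 in BCR-ABL1 cells being added (-0.46, adjusted p = 0.0184), and 3224, 6631 and 4278 genes were called in BCR-ABL1 against EV, C-MYC against EV and BCR-ABL1 against C-MYC. Without the block 2180, 5515 and 2991 were called. The first count was 714 and 665 without BCR-ABL1 replicate 1 or 2, and 1055, 1043 and 1425 with limma at a pseudocount of 1, at 0.1 and without a filter. The next was 3329 and 3563 without C-MYC replicate 1 or 2. The last was 4538 with only the 4 libraries compared, 4500 and 4519 without EV replicate 1 or 2, 618 and 1130 without BCR-ABL1 replicate 1 or 2, 1291 and 1038 without C-MYC replicate 1 or 2, and 1412 with limma and no filter. With 2 libraries per condition, leaving out 1 assumes that the remaining library varies like the others.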
